A study of Mus musculus with 228 samples.

Results

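Bile acids, the detergents that the liver makes from cholesterol, were followed through the 10 genes of their transport and of the receptor that senses them: Fgf15, Slc10a2, Fabp6, Slc51a, Slc51b, Nr0b2, Nr1h4, Gpbar1, Slc10a1 and Abcb11. The members were the rows of the deposited table whose gene name equals one of these symbols, and all 10 were found among 46331 named rows. The study measured RNA by sequencing in C57BL/6N mice, 10 weeks old when selected, kept in single cages for 42 days under 5 light-dark cycles, with 24 mice for each diet and cycle. The antibiotics mice drank a broad-spectrum cocktail in their water (the labels call it antibiotics infusion), the chow mice plain sterilized water, and both ate the same irradiated feed.

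The libraries used here came from liver (30 of antibiotics mice and 30 of chow mice, 6 per cycle), colon (15 and 15, 3 per cycle) and, of chow mice alone, jejunum, ileum and cecum (15 libraries each). The cycles are named by hours of light and dark: LD0/24 is constant darkness, then LD8/16, LD12/12 and LD16/8, and LD24/0 is constant light. The labels call the gut samples epithelium, give no sex and no hour of sampling, and do not say which libraries of different organs came from 1 mouse. They also do not say where along the colon tissue was taken. Replicates are separate samples by their labels, and p-values measure the spread between libraries. Jejunum LD0/24 replicates 1 and 2 stood closer to each other than any other jejunum pair (median chi-square per gene of 3.19, the next lowest 12.9). Antibiotics colon LD0/24 replicates 1 and 2 had the lowest mean chi-square of the colon pairs (49.1 per degree of freedom) and were also near in Slc10a2, at 150 and 149 CPM. Both pairs differed by more than counting noise, which does not show that the libraries of a pair came from different mice. Each library was counted as its label gives it.

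Bile acids leave the hepatocyte into bile through the export pump BSEP, which Abcb11 encodes, and reach the bowel. Most are taken back up in the lower small intestine: the apical sodium-dependent transporter ASBT (Slc10a2) carries them into the enterocyte, the ileal bile acid binding protein (Fabp6) holds them in its cytosol, and the 2-part exporter OSTalpha-OSTbeta (Slc51a and Slc51b) releases them towards the portal blood. NTCP (Slc10a1) draws them from blood back into the hepatocyte. Inside both cell types bile acids bind the nuclear receptor FXR (Nr1h4), which turns on the genes for SHP (Nr0b2, a repressor with no DNA-binding domain), BSEP, the ileal binding protein, the OST pair and, in the ileum, the hormone FGF15, which lowers bile acid synthesis in liver. Gpbar1 encodes TGR5, a cell-surface receptor for bile acids. Gut bacteria remove the amino acid from conjugated bile acids and alter the steroid ring, and in mice these steps change which bile acids reach FXR.

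FXR with its partner RXR binds an inverted repeat of a hexamer with 1 base between the copies, known as IR1. Promoter windows of RefSeq (build GRCm38.p6, 250 bases before to 50 bases after the start of each gene) were at hand for 9 of the 10 members (all but Fgf15), in 10 windows. On both strands, letters within 2 mismatches of AGGTCA and TGACCT with 1 free base between (12 fixed letters) were found in 374 of 32851 windows of all genes (1.14%). Of the 10 windows, those of Abcb11 and Fabp6 held them, 2 matches each. A motif of HNF1, a homeodomain factor of liver and gut epithelium, GTTAAT and ATTAAC with 1 free base between, within 2 mismatches, was in 446 windows (1.36%), among them those of Slc10a2 and Nr1h4. The motif CAAGGTCA of the receptor LRH-1, with no mismatch, was in 512 windows (1.56%) and in none of the members'. The windows of the ileal binding protein, the bile salt export pump and the apical transporter are shown up to the start of the gene, since they carry the matches and their genes are those that the results below turn on. Capitals mark the matches.
Fabp6 (chr11:43601563-43601812, minus strand): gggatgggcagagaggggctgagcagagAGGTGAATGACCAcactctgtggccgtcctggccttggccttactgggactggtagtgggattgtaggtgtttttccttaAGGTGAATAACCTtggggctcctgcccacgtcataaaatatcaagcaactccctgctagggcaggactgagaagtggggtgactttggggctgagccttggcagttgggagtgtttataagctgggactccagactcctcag
Abcb11 (chr2:69342617-69342866, minus strand): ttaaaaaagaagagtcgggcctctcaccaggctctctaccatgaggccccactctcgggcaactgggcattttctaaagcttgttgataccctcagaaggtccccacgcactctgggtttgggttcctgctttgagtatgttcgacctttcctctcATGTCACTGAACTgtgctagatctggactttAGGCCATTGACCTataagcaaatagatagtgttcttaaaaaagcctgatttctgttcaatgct
Slc10a2 (chr8:5105288-5105537, minus strand): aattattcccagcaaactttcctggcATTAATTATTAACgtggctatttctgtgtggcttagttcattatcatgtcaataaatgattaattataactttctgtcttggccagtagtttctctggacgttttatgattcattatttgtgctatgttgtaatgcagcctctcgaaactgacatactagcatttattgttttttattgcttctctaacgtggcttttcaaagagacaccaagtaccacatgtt
In these windows the capitals are, for Fabp6, the IR1 matches at -222 and -142 counted from the gene's start, with 2 mismatches each. For Abcb11 they are the IR1 matches at -94 with 2 mismatches and at -63 with 1. For Slc10a2 the capitals are the HNF1 match at -224 with 1 mismatch. A match is a likeness of letters and not a site of binding.

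Depth was high in most libraries, with totals of 61.8 to 159 M counts (mega, total counts of a library) in antibiotics livers, 72.9 to 136 M in chow livers, 8.92 to 133 M in antibiotics colons and 37.8 to 86.7 M in chow colons. For jejunum the smallest library had 86.2 M and the largest 154 M, for ileum 33.0 M and 135 M, and for cecum 67.1 M and 157 M. Of the livers, 5 chow libraries (LD0/24 replicates 1 and 4, LD8/16 replicate 3, LD12/12 replicate 2, LD24/0 replicate 5) had over 30% of their counts in mitochondrially encoded genes, and antibiotics LD0/24 replicate 1 had 0 counts on 3 chromosomes. Jejunum LD12/12 replicate 1 (86.4% mitochondrially encoded) and antibiotics colon LD8/16 replicate 1 (4225 detected genes) also stood apart. Of 18 cecum columns, 3 that carry different cycles in their labels did not differ in any value, and only the remaining 15 were used. Although labelled as epithelium, 5 of the 15 ileum libraries stood apart in the sum of 5 smooth muscle markers, at 13790 to 32240 CPM before TMM scaling (LD0/24 replicate 1, LD12/12 replicates 1 and 3, LD16/8 replicate 2, LD24/0 replicate 2), against 131 to 3865 CPM in the other 10. In bulk tissue, fewer cells of a type and less RNA per cell cannot be told apart. CPM are counts divided by library size, and those below are scaled by TMM factors, 1 scaling over all gut libraries and 1 over all livers, so levels are compared between samples and not between genes.

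**Figure D1:**
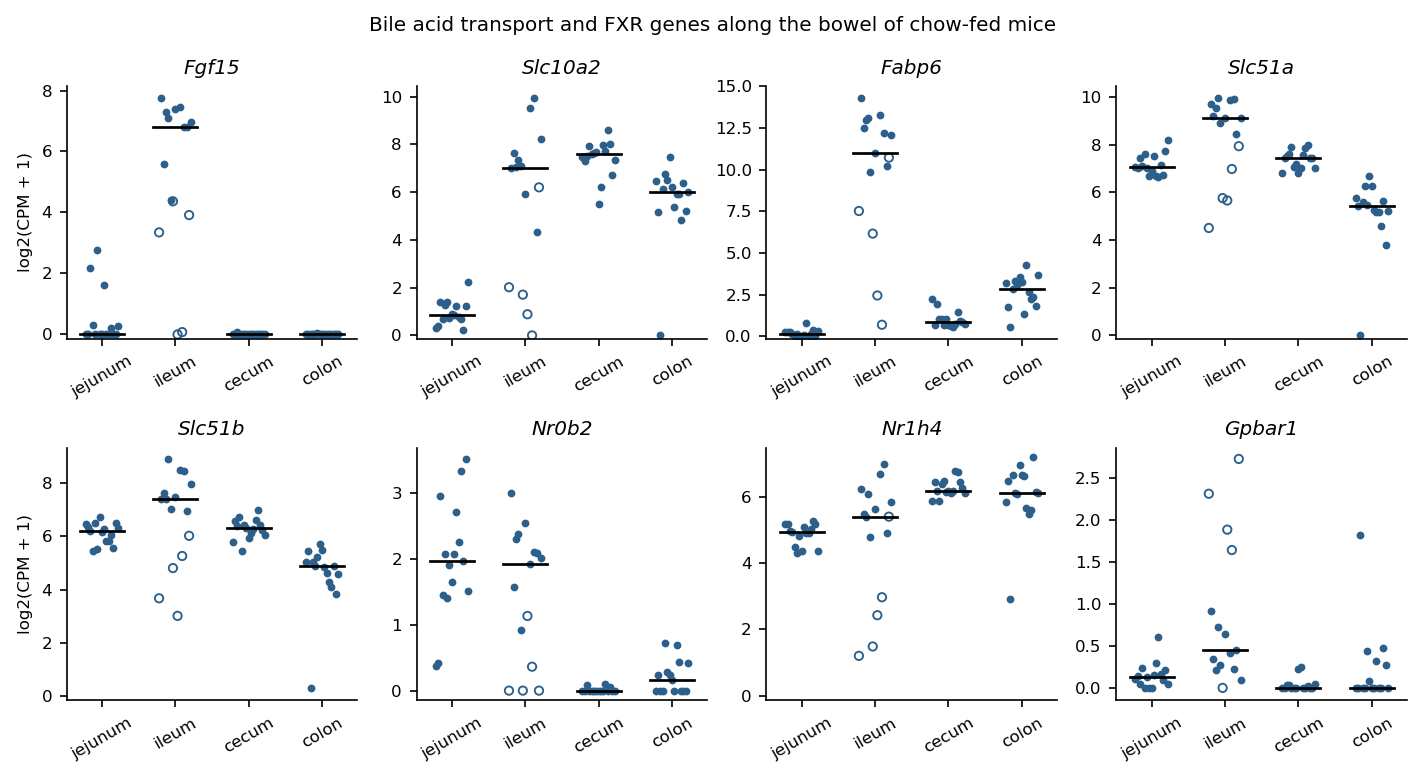
Levels of 8 genes of bile acid transport and sensing in chow jejunum, ileum, cecum and colon (15 libraries each), as log2 of TMM-scaled CPM plus 1. Each point is a library, the black line is the median, and hollow ileum points are the 5 libraries of high smooth muscle marker sum. Fgf15 and Fabp6 stand high in ileum alone. Slc10a2 has medians of 128 CPM in ileum, 196 CPM in cecum and 63.8 CPM in colon, against 0.804 CPM in jejunum.

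The uptake transporter, the cytosolic binding protein and the hormone gene were high in ileum and close to 0 in jejunum. The transporter Slc10a2 ran from 0 to 987 CPM in ileum with a median of 128, against 0.182 to 3.69 CPM and a median of 0.804 in jejunum. Fabp6 ran from 0.628 to 20050 CPM in ileum with a median of 2062, against 0 to 0.731 CPM and a median of 0.111 in jejunum. Fgf15 ran from 0 to 216 CPM in ileum with a median of 110, against 0 to 5.83 CPM in jejunum, where 9 of 15 libraries were at 0. The jejunum libraries above 0 were replicate 3 of each cycle and LD8/16 replicate 1, and the reason was not tested. All 3 genes were far higher in most ileum libraries, and for each the low end of the ileum overlapped the jejunum. Of ileum libraries, 14 lay above the highest jejunum library for Fabp6, 13 for Fgf15 and 11 for Slc10a2.

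Fitted over 22980 genes (edgeR quasi-likelihood test, Benjamini-Hochberg adjusted), Fabp6 rose by 14.62 ± 1.36 (SE) on the log2 scale in ileum relative to jejunum (adjusted p = 2.53e-07). Fgf15 rose by 7.77 ± 1.33 (adjusted p = 0.000217) and Slc10a2 by 6.78 ± 0.92 (adjusted p = 2.58e-05). The exporter gene Slc51a was found in both segments, at 21.8 to 1003 CPM and a median of 557 in ileum, against 101 to 294 CPM and a median of 133 in jejunum. It rose by 1.53 ± 0.39 (adjusted p = 0.00535), with 10 ileum libraries above and 3 below the whole range of the jejunum. Its partner Slc51b, at a median of 169 CPM in ileum and 73.4 CPM in jejunum, differed by 1.02 ± 0.39 and missed the threshold (adjusted p = 0.0583). The TGR5 gene Gpbar1 rose by 3.32 ± 0.79 (adjusted p = 0.00301) at low levels, with medians of 0.368 CPM in ileum and 0.0956 CPM in jejunum. Nr1h4 (medians 41.3 CPM in ileum and 29.6 CPM in jejunum, difference 0.38 ± 0.42) and Nr0b2 (medians 2.81 and 2.92 CPM, difference -0.60 ± 0.70) did not pass, with 95% intervals of -0.45 to 1.21 and -1.98 to 0.78. The hepatocyte genes were near 0, with Slc10a1 at 54 counts summed over 15 ileum libraries and 103 over jejunum. Slc10a1 fell (-2.77 ± 0.94, adjusted p = 0.0376) on these few counts, a call lost in 19 of 30 fits that each left out 1 library, and Abcb11 could not be fitted with a usable error.

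In all, 6 of the 10 members passed between ileum and jejunum, 5 higher and 1 lower, where 25.5% of all genes tested passed (15.3% higher and 10.1% lower). Their median log2 difference was 1.27, against -0.01 over all genes. Fabp6, Fgf15 and Gpbar1, near 0 in jejunum, could hardly pass but as higher. The smooth muscle markers moved with this comparison: all 5 rose, with a median log2 difference of 3.83, and summed to 154 to 19110 CPM in ileum, against 14.3 to 1769 CPM in jejunum. Without the 5 ileum libraries of high smooth muscle sum, an alternative chosen after these sums were seen, 6 members again passed, and all 6 were higher, where 14.6% of genes passed (7.34% higher and 7.28% lower). In that comparison Slc51b rose by 1.54 ± 0.20 (adjusted p = 4.17e-05) and Nr1h4 by 0.87 ± 0.16 (adjusted p = 0.00152), while Gpbar1 (1.79 ± 0.65, adjusted p = 0.0704) and Slc10a1 no longer passed. Fabp6, Fgf15, Slc10a2 and Slc51a passed both with and without those libraries.

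In the 5 ileum libraries of high smooth muscle sum the medians of 7 members were lower than in the other 10. For Fgf15, Slc51a and Slc51b the 5 and the 10 did not overlap, and the share of all genes with no overlap was not counted. The sum of the gut epithelium markers did not overlap either, at 1253 to 4979 CPM in the 5 and 10320 to 25800 CPM in the 10. Fgf15 ran from 0 to 19.6 CPM in these 5 with a median of 9.17, and from 20.4 to 216 CPM with a median of 130 in the other 10. Slc51a ran from 21.8 to 245 CPM in the 5 and from 354 to 1003 CPM in the 10, and Slc51b from 7.12 to 63.9 CPM in the 5 and from 123 to 476 CPM in the 10. The other 4 members with lower medians overlapped. One of the 5, LD24/0 replicate 2, had 72.6 CPM of Slc10a2, 1682 CPM of Fabp6 and 41.2 CPM of Nr1h4, inside the ranges of the 10 (19.1 to 987, 918 to 20050 and 26.5 to 127 CPM). Nr0b2 was 1.198 CPM in another of the 5, LD12/12 replicate 3, against a lowest value of 0.903 CPM in the 10. Gpbar1 went the other way, with a median of 2.69 CPM in the 5 and 0.299 CPM in the 10. So did Abcb11 at levels near 0, with medians of 0.248 and 0.0151 CPM. The part of tissue makeup in the spread of these genes was not tested.

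Among the 10 ileum libraries of lower smooth muscle sum, levels still varied widely. Slc10a2 ran from 19.1 CPM in LD24/0 replicate 1 to 987 CPM in LD16/8 replicate 3, and Fabp6 from 918 CPM in LD8/16 replicate 3 to 20050 CPM in LD0/24 replicate 2. Over these 10, 3 of 15 pairs of 6 genes were correlated in log2 CPM after adjustment (permutation test of Pearson's r, two-sided, 100000 resamples). The pair Fgf15 and Nr0b2, 2 targets of FXR, had r = 0.93 (p = 0.0006, adjusted p = 0.009) with Spearman's rho of 0.68 (permutation p = 0.0343, adjusted p = 0.117). The pair Fabp6 and Slc51a had r = 0.81 (permutation adjusted p = 0.0311) with rho of 0.78 (permutation adjusted p = 0.0744), and the exporter pair Slc51a and Slc51b r = 0.79 (permutation adjusted p = 0.036) with rho of 0.76. Without the 2 libraries farthest from the median of the first gene, r over 8 libraries was 0.66 for Fgf15 and Nr0b2 (permutation p = 0.0678), 0.62 for Fabp6 and Slc51a (permutation p = 0.0972) and 0.66 for the exporter pair (permutation p = 0.0832), and none of the 3 passed. Fgf15 and Slc10a2 had r = 0.03 (permutation p = 0.925) over the 10. Pooled coefficients over all 15 libraries are not given, since the 5 stand apart.

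Past the ileocecal border Fgf15 and Fabp6 were at or near 0, while the apical transporter Slc10a2 stayed within its ileal range. Fgf15 was at 0 in 14 of 15 cecum libraries, with 12 counts in the other, against 14 of 15 ileum libraries above 0. Fabp6 ran from 0.474 to 3.84 CPM in cecum with a median of 0.844, far below its ileal median of 2062 CPM, and overlapped the ileum through 1 low ileum library, LD16/8 replicate 2. Fgf15 (-15.17 ± 1.66, adjusted p = 2.07e-06) and Fabp6 (-11.45 ± 1.096, adjusted p = 1.19e-08) fell in cecum relative to ileum by the same edgeR test over 23206 genes. The size for Fgf15 rests on the 12 cecum counts and is not precise.

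Slc10a2 ran from 44.3 to 387 CPM in cecum with a median of 196, inside its ileal range. Its difference of 0.77 ± 0.68 between cecum and ileum did not pass (adjusted p = 0.39, 95% interval -0.552 to 2.102). Slc51a ran from 111 to 255 CPM in cecum with a median of 174 and fell relative to ileum by 1.26 on the log2 scale (SE 0.38, adjusted p = 0.00959). Slc51b had a median of 77.9 CPM in cecum and 169 CPM in ileum (-0.77 ± 0.38, adjusted p = 0.111). Nr1h4 ran from 57.2 to 109 CPM in cecum with a median of 71.7, and 11 ileum libraries lay below all 15 cecum libraries. It rose in cecum by 1.13 ± 0.43 (adjusted p = 0.035), a call lost in 11 of 30 fits that each left out 1 library (adjusted p up to 0.0633). Its target Nr0b2 fell by 8.44 on the log2 scale (SE 1.31, adjusted p = 3.57e-05) and was at 0 in 12 of 15 cecum libraries, against 3 of 15 in ileum. Gpbar1 fell too (-5.95 ± 0.97, adjusted p = 3.37e-05), and Slc10a1, at 65 counts over 15 cecum libraries, rose (2.28 ± 0.85, adjusted p = 0.0386), a call lost in 14 of 30 such fits.

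Of the 10 members 7 passed between cecum and ileum, 2 higher and 5 lower, where 42.3% of genes passed (20.6% higher, 21.7% lower). Fgf15, Nr0b2 and Gpbar1, near 0 in cecum, could hardly pass but as lower. The median log2 difference of the members was -1.02, against -0.05 over all genes. Smooth muscle markers fell here, 5 of 5, with a median of -2.22. Without the 5 ileum libraries of high smooth muscle sum 7 members again passed, where 37.3% of genes passed (21% higher and 16.3% lower). Slc51b then fell (-1.31 ± 0.18, adjusted p = 7.34e-06), Nr1h4 still rose (0.64 ± 0.17, adjusted p = 0.00524) and Slc10a1 no longer passed.

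In chow colon the uptake and export genes were lower than in cecum, and the FXR gene did not pass the test. Slc51a ran from 0 to 101 CPM in colon with a median of 42.5, against 111 to 255 CPM and a median of 174 in cecum. Slc10a2 ran from 0 to 175 CPM in colon with a median of 63.8, against 44.3 to 387 CPM and a median of 196 in cecum. Slc51b had medians of 28.3 CPM in colon and 77.9 CPM in cecum. The colon and cecum libraries did not overlap for Slc51a and overlapped for the others. Slc51a was the only member with no overlap in the 5 comparisons of segment or diet. The share of all genes with no overlap was not counted, so this is not a trait shown to be particular to Slc51a. By the edgeR test over 22745 genes Slc51a (-1.95 ± 0.43, adjusted p = 0.000438), Slc51b (-1.49 ± 0.33, adjusted p = 0.000492) and Slc10a2 (-1.44 ± 0.46, adjusted p = 0.00961) fell in colon. Fabp6 rose to a median of 6.18 CPM in colon, against 0.844 CPM in cecum (2.69 ± 0.39, adjusted p = 2.1e-06). Nr0b2 (4.51 ± 1.24, adjusted p = 0.00354, 190 counts over 15 colon libraries) and Gpbar1 (3.13 ± 1.13, adjusted p = 0.0193) rose at levels close to 0. Without chow colon LD0/24 replicate 2 (3.41) or LD24/0 replicate 3 (3.22) the Nr0b2 call was lost, as these fits had no usable error. The same held for Gpbar1 without chow colon LD0/24 replicate 3 (1.29), LD8/16 replicate 3 (1.67), LD12/12 replicate 1 (2.35) or LD16/8 replicate 1 (1.78). Nr1h4 had medians of 68.9 CPM in colon and 71.7 CPM in cecum, and its difference of -0.07 ± 0.21 did not pass (95% interval -0.48 to 0.34).

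Of 8 members tested 6 passed between colon and cecum, 3 higher and 3 lower, in a comparison where 59.7% of genes passed (31.5% higher and 28.2% lower). Their median log2 difference was -0.36, against 0.09 over all genes. Nr0b2 and Gpbar1, near 0 in cecum, could hardly pass but as higher. All 5 smooth muscle markers rose (median 3.41) and all 6 gut epithelium markers fell (median -1.70). Their part in the falls of the transporters was not tested beyond a fit with the smooth muscle sum as a covariate, added after seeing the data, in which 4 members passed: Slc51a (-1.68 ± 0.59, adjusted p = 0.0262), Slc51b, Slc10a2 and Fabp6. In that fit 40.8% of genes passed (18.9% higher and 22% lower). In the fit without it, clock genes also differed between colon and cecum by edgeR. Dbp (1.28 ± 0.54, adjusted p = 0.0438) and Per1 (1.04 ± 0.22, adjusted p = 0.000208) rose. Arntl (-1.53 ± 0.32, adjusted p = 0.000231) and Clock (-0.64 ± 0.11, adjusted p = 1.69e-05) fell. The part of the hour of sampling was not tested.

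Other genes of the pathway moved both ways along the bowel. Their values against ileum are from the fits with all 15 ileum libraries, the 5 of high smooth muscle sum included. They are not given here without those 5, and the part of tissue makeup in them was not tested. Between ileum and jejunum, where 25.5% of all genes passed, 1 of 12 tested transporters of bile acids and biliary lipids rose (Abcc4, a basolateral exporter, 1.99 ± 0.47, adjusted p = 0.00278) and 2 fell, among them the exporter gene Abcc3 (-1.57 ± 0.29, adjusted p = 0.000418). Of 16 receptors and partners 1 rose and 5 fell, including Gata4, the factor of the upper small intestine that in mice holds Slc10a2 down (median 41.3 CPM in ileum and 110 CPM in jejunum, -1.97 ± 0.39, adjusted p = 0.00062). Gata4 had a median of 0 CPM in cecum (-11.96 ± 0.83 relative to ileum, adjusted p = 5.83e-10).

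At the border of cecum and ileum other exporters differed in both directions, again in the fit with all 15 ileum libraries. Abcc3 rose to a median of 438 CPM in cecum, against 14.5 CPM in ileum (5.15 ± 0.26, adjusted p = 3.52e-13). The sterol exporter genes Abcg5 (-13.79 ± 0.82, adjusted p = 5.81e-11) and Abcg8 (-13.08 ± 1.08, adjusted p = 7.06e-09) and the apical exporter Abcc2 (-6.44 ± 0.66, adjusted p = 3.62e-08) fell, so that 4 of 12 transporters rose and 4 fell, where 20.6% of all genes rose and 21.7% fell. Malrd1, also called Diet1, which in mice raises FGF15 output, had a median of 15.2 CPM in cecum, against 115 CPM in ileum (-2.69 ± 0.47, adjusted p = 8.13e-05). Of 12 further genes described as FXR targets 3 rose, led by Car12 (4.91 ± 0.31, adjusted p = 1.04e-11), and 5 fell, led by Nos2 (-4.15 ± 0.56, adjusted p = 2.17e-06). Between colon and cecum 3 of these 12 rose and 6 fell, where 31.5% of all genes rose and 28.2% fell, and Car12 was among those that fell (-3.05 ± 0.17, adjusted p = 3.64e-13).

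Over the 60 chow gut libraries the genes whose log2 CPM were most like those of Fgf15 among 26666 genes were Fam151a (Pearson's r = 0.92), Gm26793, Gm38576, Plb1 and Gm39350, and Fabp6 ranked 21st with r = 0.79. Closest to Fabp6 were Ccdc198 (written ccdc198 in the table, r = 0.89), Suox, Plb1, Prss23 and Gm26793, with Fgf15 next. Closest to Slc10a2 were Neu1 (r = 0.90), Tmigd1, Mgat4c, Trpm6 and E2f5. Libraries of 1 segment share their tissue, so these likenesses are descriptions of where the genes are high.

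**Figure D2:**
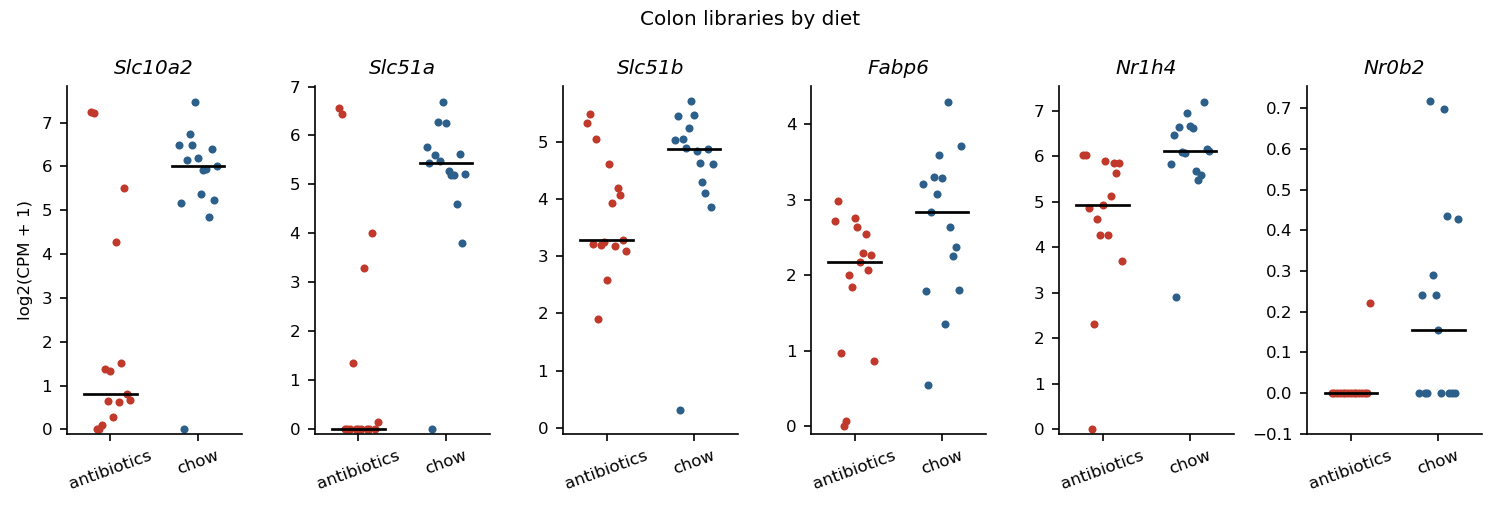
Levels of 6 genes in antibiotics colon (left) and chow colon (right), 15 libraries each, as log2 of TMM-scaled CPM plus 1, with lines at the medians. Slc10a2 and Slc51a are near 0 in most antibiotics libraries and high in all chow libraries but LD0/24 replicate 3.

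In colon the uptake gene Slc10a2 and the exporter gene Slc51a were lower with antibiotics. Hoxb13, a marker of position, nearly separated the diets, so a fit with it as a covariate, in which neither passed, cannot divide the difference. Slc10a2 ran from 0 to 150 CPM in antibiotics colon with a median of 0.762, against 0 to 175 CPM and a median of 63.8 in chow colon. Slc51a was at 0 in 9 of 15 antibiotics libraries and reached 93.5 CPM, against a median of 42.5 CPM and a range of 0 to 101 CPM in chow colon. Of the antibiotics libraries 3 (LD0/24 replicates 1 and 2, LD24/0 replicate 1) lay among the chow libraries for both genes. Of the remaining 12, LD16/8 replicate 1 was highest, at 18.4 CPM of Slc10a2 and 8.74 CPM of Slc51a, below all chow libraries but LD0/24 replicate 3, which was at 0 for both genes. Slc10a2 fell by 3.52 on the log2 scale (SE 0.85, adjusted p = 0.019) and Slc51a by 5.41 (SE 1.31, adjusted p = 0.0223) with antibiotics by the edgeR quasi-likelihood test over 23717 genes. The Slc51a call was lost without antibiotics LD0/24 replicate 2 (adjusted p = 0.0521), LD12/12 replicate 1 (0.0542) or LD12/12 replicate 3 (0.0501), and that of Slc10a2 held in all 30 such fits. Of the close pair of antibiotics LD0/24 replicates 1 and 2, leaving out 1 or the other gave Slc10a2 an adjusted p of 0.0365 or 0.0386.

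Slc51b ran from 2.75 to 43.7 CPM in antibiotics colon with a median of 8.74, against 0.240 to 51.0 CPM and a median of 28.3 in chow colon, and its difference of -0.84 ± 0.42 did not pass (adjusted p = 0.378). The FXR gene Nr1h4 had a median of 29.5 CPM in antibiotics colon and 68.9 CPM in chow colon, with 10 chow libraries above all antibiotics libraries (-1.23 ± 0.40, adjusted p = 0.0937). That difference passed when antibiotics LD8/16 replicate 1, of low depth, was left out (-1.14 ± 0.32, adjusted p = 0.0379), or without chow LD0/24 replicate 3 (adjusted p = 0.0467) or antibiotics LD8/16 replicate 3 (adjusted p = 0.01). Fabp6 had medians of 3.51 CPM in antibiotics colon and 6.18 CPM in chow colon (-1.09 ± 0.48, adjusted p = 0.289), and passed only without antibiotics LD8/16 replicate 3 (-2.01, adjusted p = 0.0137). Nr0b2 was at 0 in 14 of 15 antibiotics libraries, with 18 counts in the other, and at 0 in 7 of 15 chow libraries, with 190 counts in all. Its fall (-5.42 ± 1.39, adjusted p = 0.036) rests on these few counts and was lost in 21 of 30 fits that each left out 1 library.

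Thus 3 of 8 members tested passed, all lower, where 3.21% of genes passed (1.14% higher and 2.07% lower). Nr0b2, among the 3, had almost no counts in antibiotics colon and could hardly pass but as lower. Its call therefore adds little to this share. The members' median log2 difference was -1.16, against -0.02 over all genes. Fgf15 (0 counts in antibiotics colon and 4 in chow colon) and Slc10a1 were too low to be tested, and Abcb11 could not be fitted with a usable error.

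**Figure D3:**
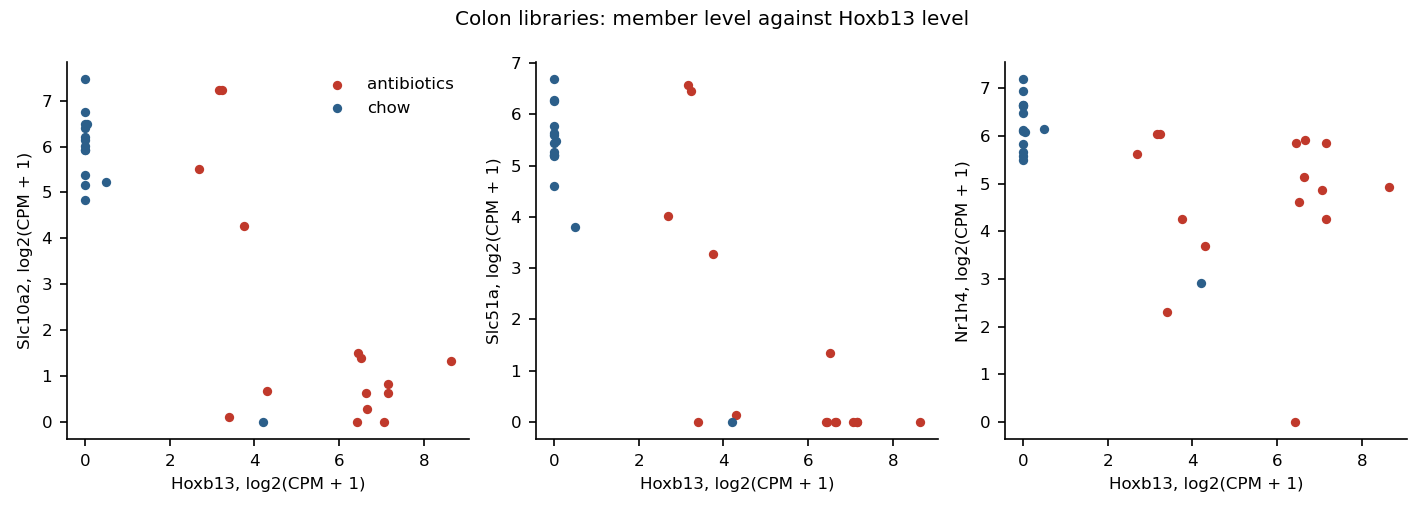
Slc10a2, Slc51a and Nr1h4 against Hoxb13 in each colon library, as log2 of TMM-scaled CPM plus 1, antibiotics and chow libraries in different colours. All antibiotics libraries lie right of 14 of the 15 chow libraries on the Hoxb13 axis.

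A marker of position moved with the diet. Hoxb13, a homeobox gene of the hindmost gut, ran from 5.48 to 397 CPM in antibiotics colon with a median of 86.2. In chow colon it ran from 0 to 17.4 CPM with a median of 0, and 14 of 15 chow libraries lay below every antibiotics library. Elsewhere in chow bowel its medians were low, at 1.22 CPM in ileum, 0.631 CPM in jejunum and 0 in cecum. Hoxd10, another homeobox gene, went the other way. It ran from 0 to 22.7 CPM in antibiotics colon with a median of 3.43. Its chow colon values were 1.92 to 39.9 CPM with a median of 21.2. The 1 chow library with Hoxb13 at 17.4 CPM was LD0/24 replicate 3, the library with Slc10a2 and Slc51a at 0. That library also had the highest smooth muscle sum of the 30 colons (43120 CPM) and the lowest gut epithelium sum of the chow colons (1338 CPM). The 4 antibiotics libraries with Slc10a2 above 10 CPM (LD0/24 replicates 1 and 2, LD16/8 replicate 1, LD24/0 replicate 1) had Hoxb13 of 7.93, 8.47, 12.6 and 5.48 CPM, among the lowest 6 of their group, and the remaining 2 of those 6 (LD8/16 replicate 2 and LD24/0 replicate 3) had Slc10a2 of 0.077 and 0.588 CPM. With Hoxb13 as a covariate, added after seeing the data, no gene of 23717 passed (0%, with 1174 under 0.05 before adjustment). The fitted differences of Slc10a2 (4.18 ± 2.01) and Slc51b (2.37 ± 1.22) turned positive. Since Hoxb13 nearly separates the diets, this fit cannot divide a difference between them, and the 0 and the turned signs decide nothing. The diet and the part of the colon that was sampled cannot be told apart in these libraries. Of 8 colonocyte markers, Hoxb13 among them, 4 rose and 2 fell with antibiotics. Their summed level ran from 162 to 10850 CPM in antibiotics colon with a median of 2340, against 465 to 17070 CPM and a median of 7943 in chow colon. One of the 2 that fell was Car1, a carbonic anhydrase, with a median of 586 CPM in antibiotics colon and 7506 CPM in chow colon (-2.73 ± 0.46, adjusted p = 0.000998 by edgeR). Leukocyte markers (0 of 5 passed) summed to 52.0 to 1052 CPM with a median of 356 in antibiotics colon, against 42.8 to 316 CPM and a median of 134 in chow colon, and had a median log2 difference of 1.29. Gut epithelium markers (0 of 6 passed) and smooth muscle markers (0 of 5 passed) had overlapping sums, of 676 to 7358 and 21.6 to 34530 CPM in antibiotics colon, against 1338 to 8980 and 295 to 43120 CPM in chow colon.

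Within single cycles (3 libraries against 3) Slc10a2 differed between antibiotics and chow by 1.26 ± 1.74 in LD0/24, -6.99 ± 2.26 in LD8/16, -7.03 ± 2.24 in LD12/12, -2.86 ± 1.84 in LD16/8 and -1.96 ± 1.77 in LD24/0, none with an adjusted p under 0.05. A test of whether the diet difference varied with the cycle passed for 0 of 23717 genes by edgeR (0%, with 1055 under 0.05 before adjustment) and for 8 by DESeq2, with Slc10a2 at an unadjusted p of 0.026 and Slc51a at 0.0366 (both adjusted p = 1).

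Of the pathway lists in colon, where 3.21% of all genes passed with antibiotics, 0 of 13 bile acid synthesis genes passed. Of 12 transporters 2 fell, 1 of them Abcb1a (median 24.8 CPM in antibiotics and 92 CPM in chow, -1.34 ± 0.34, adjusted p = 0.0259), an efflux pump of the apical membrane. The xenobiotic receptor CAR (Nr1i3) rose (4.33 ± 0.79, adjusted p = 0.00188) and Malrd1 fell (-3.44 ± 0.87, adjusted p = 0.0265) among 16 receptors and partners. Among 13 further FXR targets Apoc2 rose (1.78 ± 0.42, adjusted p = 0.016), and Car12 (-2.31 ± 0.34, adjusted p = 0.000198), Ppara and Ang fell. Median log2 differences of the 4 lists lay between -0.41 and -0.11. Of the clock genes Arntl rose with antibiotics (1.27 ± 0.33, adjusted p = 0.0311 by edgeR). Dbp had a median of 8.70 CPM in antibiotics colon and 51.8 CPM in chow colon. The hour of sampling is not given, and its part in the colon differences was not tested.

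**Figure D4:**
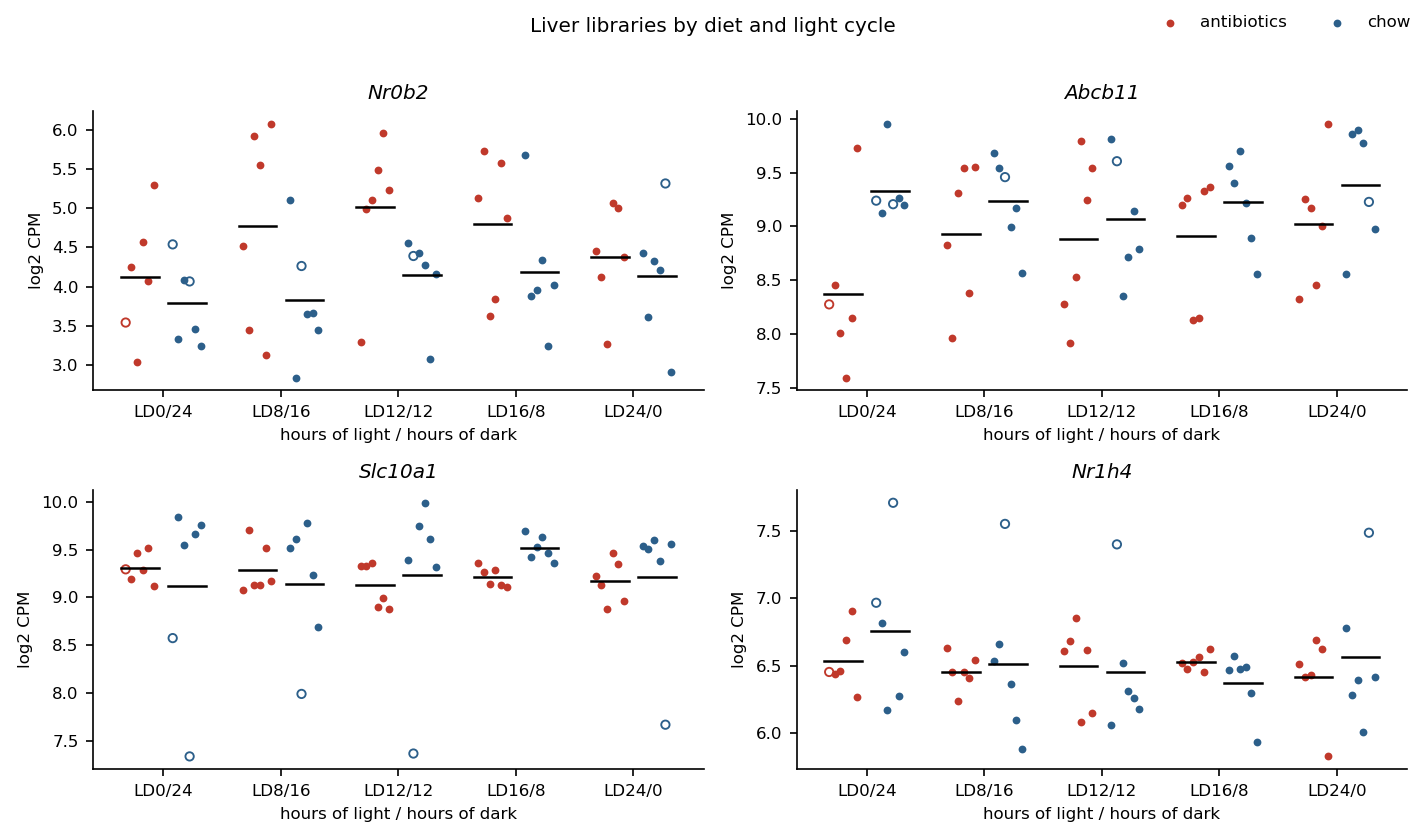
Nr0b2, Abcb11, Slc10a1 and Nr1h4 in liver by light-dark cycle, as log2 of TMM-scaled CPM, antibiotics left of chow within each cycle (6 libraries each). Lines are means of the log2 values and hollow points are the 6 libraries that stood apart. Nr0b2 means are higher with antibiotics in each cycle.

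In liver the SHP gene was higher with antibiotics. Nr0b2 ran from 8.24 to 67.6 CPM in antibiotics livers with a median of 26.6, against 7.16 to 51.2 CPM and a median of 16.9 in chow livers. The groups overlapped over most of their range, with 4 antibiotics libraries above all chow libraries and 2 chow libraries below all antibiotics libraries. Nr0b2 rose by 0.67 ± 0.20 on the log2 scale (SE, edgeR quasi-likelihood test over 18971 genes, adjusted p = 0.00824) and passed in all 60 fits that each left out 1 library (0.60 to 0.77). Without the 6 libraries that stood apart the rise was 0.85 ± 0.22 (adjusted p = 0.00198). By cycle the difference was 0.44 ± 0.45 in LD0/24, 1.17 ± 0.45 in LD8/16, 0.99 ± 0.45 in LD12/12, 0.59 ± 0.45 in LD16/8 and 0.18 ± 0.45 in LD24/0, none with an adjusted p under 0.05.

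The export pump gene Abcb11, itself a target of FXR, had lower values with antibiotics. It ran from 194 to 990 CPM in antibiotics livers with a median of 483, against 328 to 990 CPM and a median of 597 in chow livers, and 10 antibiotics livers lay below all chow livers. The difference of -0.36 ± 0.14 missed the threshold (adjusted p = 0.0567). It passed by DESeq2 (-0.37, adjusted p = 0.0353), by limma-voom (-0.42, adjusted p = 0.0227) and with Dbp and Arntl as covariates (-0.44, adjusted p = 0.00303), and did not pass without the 6 libraries that stood apart (-0.33, adjusted p = 0.107). Of the 60 fits that each left out 1 library 11 passed, with adjusted p from 0.0102 to 0.0908 over all 60.

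The uptake gene Slc10a1 had a median of 591 CPM in antibiotics livers (470 to 834) and 734 CPM in chow livers (162 to 1017). The 5 lowest chow livers were the 5 with over 30% mitochondrially encoded counts, at 162 to 382 CPM. Over all 60 livers its difference was -0.14 ± 0.13 (adjusted p = 0.441), and without the 6 libraries that stood apart Slc10a1 fell by 0.31 (SE 0.06, adjusted p = 8.44e-05). Nr1h4 went the other way in the same 5 livers, at 125 to 210 CPM, against 58.8 to 113 CPM in the other 25 chow livers. Its difference between antibiotics (median 90.2 CPM) and chow (median 87 CPM) was -0.11 ± 0.10 over all livers (adjusted p = 0.461) and 0.14 ± 0.07 without the 6 (adjusted p = 0.102). Slc10a2, which cholangiocytes of the bile ducts are known to use, had medians of 15.4 CPM with antibiotics and 14.4 CPM with chow (0.29 ± 0.18, adjusted p = 0.25), and Slc51b 0.805 and 0.942 CPM (-0.24 ± 0.23, adjusted p = 0.465). Fgf15, Fabp6, Slc51a and Gpbar1 were not tested, with medians of 0 in both diets and at most 70 counts summed over 30 livers.

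Of 6 members tested in liver 1 passed, higher, where 29.3% of genes passed (12.3% higher and 17% lower), and their median log2 difference was -0.12, against -0.01 over all genes. Without the 6 libraries that stood apart 2 passed, Nr0b2 higher and Slc10a1 lower, where 36% of genes passed (19.4% higher and 16.6% lower). Of 11 clock genes 0 passed, while the median of Dbp, an output gene of the clock with a steep daily rhythm, was 6.08 CPM in antibiotics livers and 21.3 CPM in chow livers. With Dbp and Arntl as covariates the Nr0b2 rise was 0.66 ± 0.20 (adjusted p = 0.0105 by edgeR). The hour of sampling is not given and these covariates cannot stand in for it, so its part was not tested. Hepatocyte markers summed to 100000 to 144500 CPM with a median of 120250 in antibiotics livers. In chow livers they summed to 103100 to 217900 CPM with a median of 164750, and 1 of 6 fell with antibiotics. Of 6 cholangiocyte markers 2 rose, as did 4 of 5 smooth muscle markers, which summed to 5.12 to 88.4 CPM in antibiotics livers, against 4.74 to 24.6 CPM in chow livers. The part of cell makeup in these differences was not tested.

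**Figure D5:**
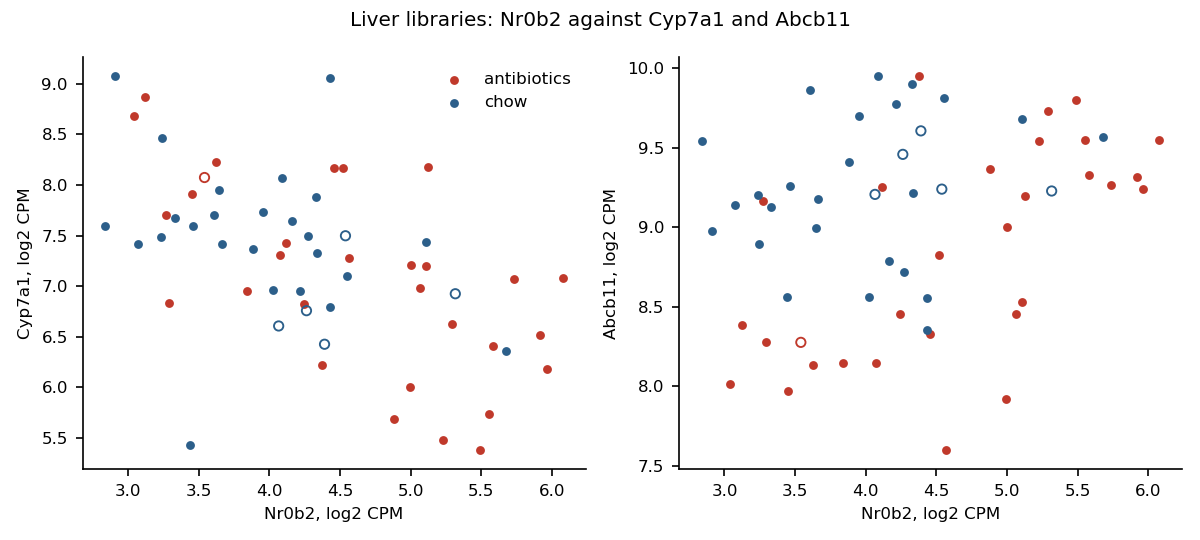
Nr0b2 against Cyp7a1 and against Abcb11 in 60 livers, as log2 of TMM-scaled CPM, antibiotics and chow livers in different colours, hollow where a library stood apart. In antibiotics livers higher Nr0b2 tended to go with lower Cyp7a1 and higher Abcb11.

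SHP is known to repress Cyp7a1, whose enzyme takes the first and limiting step from cholesterol to bile acids. In antibiotics livers the RNA levels of Nr0b2 and Cyp7a1 were correlated with a negative sign. Cyp7a1 ran from 41.5 to 468 CPM in antibiotics livers with a median of 135, against 43.0 to 541 CPM and a median of 176 in chow livers (-0.29 ± 0.21, adjusted p = 0.315 by edgeR). Antibiotics LD0/24 replicate 3, lowest in Nr0b2 at 8.24 CPM, had 411 CPM of Cyp7a1. LD8/16 replicate 6, highest in Nr0b2 at 67.6 CPM, had 135 CPM of Cyp7a1, at the median of its diet and not low. Over the 30 antibiotics livers Nr0b2 and Cyp7a1 had r = -0.63 in log2 CPM (adjusted p = 0.0017) and rho = -0.59 (adjusted p = 0.0041), by two-sided permutation tests adjusted over 10 relations, and r = -0.52 without the 2 libraries farthest from the Nr0b2 median. Nr0b2 and Abcb11 had r = 0.61 (permutation adjusted p = 0.0023) and rho = 0.65 (permutation adjusted p = 0.0018), and r = 0.57 without the 2 farthest. Within cycles, as deviations from cycle means, r was -0.62 and 0.60. Over the 30 chow livers r was -0.33 with Cyp7a1 (permutation adjusted p = 0.176) and 0.18 with Abcb11 (permutation adjusted p = 0.412). The difference between the diets in these correlations was not tested. What causes them, repression by SHP or the hour of sampling among others, was not tested either. Nr0b2 was not correlated past the threshold with Cyp8b1, Slc10a1 or Dbp in either diet, with r between -0.38 and -0.02.

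Of the other pathway genes in liver, 5 of 16 bile acid synthesis genes passed, a share close to the 29.3% of all genes that passed (12.3% higher and 17% lower). Cyp8b1, the enzyme of cholic acid synthesis, fell to a median of 64.4 CPM with antibiotics, against 206 CPM with chow (-1.81 ± 0.22, adjusted p = 5.25e-09), and Cyp27a1 fell (-0.23 ± 0.07, adjusted p = 0.0168). Cyp39a1 (0.65 ± 0.25, adjusted p = 0.0463), Scp2 and Amacr rose. Of 14 transporters 5 rose and 2 fell. The uptake transporter Slco1b2 rose to a median of 798 CPM with antibiotics, against 418 CPM with chow (0.89 ± 0.11, adjusted p = 7.93e-09), and the biliary sterol exporter gene Abcg8 rose by 0.79 ± 0.24 (adjusted p = 0.00883). The exporter gene Abcc4 fell (-0.78 ± 0.16, adjusted p = 0.000164). The FGF15 receptor genes Fgfr4 (0.01 ± 0.08, adjusted p = 0.967) and Klb (-0.01 ± 0.12, adjusted p = 0.97) did not pass, named here after their values were seen. Of 15 further genes described as FXR targets 7 rose and 3 fell: Pltp, a phospholipid transfer protein, fell to a median of 36 CPM with antibiotics, against 207 CPM with chow (-2.51 ± 0.15, adjusted p = 9.96e-19), Kng1 (-0.53 ± 0.07, adjusted p = 8.53e-08) and Apoc2 also fell, and Ang (0.91 ± 0.14, adjusted p = 1.53e-06), Vldlr and Ppara led the rises. Median log2 differences were -0.08 for synthesis, 0.31 for transporters, 0.07 for receptors and partners and 0.21 for FXR targets.

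Over the 60 livers the genes most like Nr0b2 in log2 CPM among 18970 were D630039A03Rik (Pearson's r = 0.71), Pigl, Fam120aos, Nat8f1 and Mthfsl, and those most like Abcb11 were Amt (r = 0.88), Rab36, Eps8l2, Atf5 and Coq8a.

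Nr0b2 was lower with antibiotics in colon and higher with antibiotics in liver. In a fit of both organs over 25681 genes the difference in colon minus that in liver was -5.94 ± 0.90 for Nr0b2 (adjusted p = 1.41e-06), -3.80 ± 0.62 for Slc10a2 (adjusted p = 6.06e-06) and -1.12 ± 0.30 for Nr1h4 (adjusted p = 0.00721) by the edgeR test. These 3 of 9 members passed, each with a negative difference, where 9.09% of genes passed (4.72% higher and 4.37% lower). The comparison carries the colon's limits, the few Nr0b2 counts and the Hoxb13 difference, with it.

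Light-dark cycle moved no member past the threshold in any of the 7 groups tested. Called genes were 47 of 18971 in chow liver (0.248%), 1 in antibiotics liver (0.00527%), 5 of 23717 in antibiotics colon (0.0211%) and none (0%) in jejunum, ileum, cecum and chow colon. The chow liver count ran from 13, without chow LD0/24 replicate 2 or 6, to 283, without chow LD16/8 replicate 6, when 1 library was left out at a time. In antibiotics liver it ran from 0 to 10 and in antibiotics colon from 0 to 27, and the counts of 0 reached 3 in jejunum (without LD0/24 replicate 3), 3 in cecum (without LD8/16 replicate 2) and 13 in chow colon (in the fit of both diets without antibiotics LD8/16 replicate 1). None of these fits called a member. In antibiotics colon Slc10a2 (adjusted p = 0.485) and Slc51a (adjusted p = 0.568) were closest to passing by the edgeR test. Before adjustment 1237 genes were under 0.05 in jejunum, 419 in ileum, 1327 in cecum and 703 in chow colon, and DESeq2 called 247, 36, 422 and 46, of which 1 in ileum was a member, Fabp6.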

How the data were processed

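RNA was extracted as total RNA with TRIzol and made into libraries with a SMARTER mRNA-Seq kit, per the labels' protocols. The authors deposited 1 table of estimated counts per gene for 228 libraries of 10 tissues. The submitters' processing notes name HISAT2 2.1.0, SAMtools 1.10, StringTie 2.2.1 and the build GRCm39. Of 46333 rows, 2 name no gene (at most 0.114% of a library's counts) and were left out. Values that are multiples of 4 were in surplus (146169 values of 4, against 86362 of 3), which the sources used here do not explain. Strandedness is not given in the sources used here.

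Estimated counts were rounded and tested with edgeR 4.0.16 (R 4.3.3): TMM scaling, a filter on low counts by group, the robust quasi-likelihood test, and Benjamini-Hochberg adjustment over all genes of a fit, with a threshold of 0.05. Each fit had 1 mean per group and cycle, and diets or segments were compared as averages over the 5 cycles. SE is the absolute log2 difference over the square root of F. The steps were tested on simulated data. DESeq2 1.42.0, limma 3.58.1 (voom), no filter, covariates, division by 4, a replicate block and leaving out libraries were alternatives. Replicate numbers were not taken to pair the samples, since not every same-numbered pair deviated together.

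Named genes are all members, the 3 largest rises and 3 largest falls past the threshold in each pathway list with a mean of at least 1 CPM in either group, the genes set against Nr0b2, and the 5 most alike genes of 5 members, or a part of these. The members and lists were chosen with earlier results of these data known. Depth limits mainly the genes near 0. In antibiotics colon LD8/16 replicate 1, of 8.92 M counts, Nr1h4 was also at 0, against 3.96 to 64.7 CPM in the other antibiotics colons. Intervals cover the spread between libraries.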

Additional observations from a re-analysis of the deposited data

Results flagged for a closer look

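Of 60 sets of 6 liver values (6 members in each of 10 groups of diet and cycle), 8 had a library far from the others by Dixon's test, where chance gives about 1 in 20 groups. In chow liver, Nr0b2 was 51.2 CPM in LD16/8 replicate 1, against 9.47 to 20.2 CPM in the other 5, and 8.41 CPM in LD12/12 replicate 5, against 17.9 to 23.5 CPM. Abcb11 was 848 CPM in antibiotics LD0/24 replicate 6, against 194 to 351 CPM in its group, and 989.7 CPM in chow LD0/24 replicate 3, against 558 to 613 CPM. Slc10a2 was 22.2 CPM in chow LD16/8 replicate 2, against 11.2 to 14.6 CPM. The remaining 3 are chow livers with over 30% mitochondrially encoded counts. Nr1h4 was 188 CPM in LD8/16 replicate 3, against 58.8 to 101 CPM, and 169 CPM in LD12/12 replicate 2, against 66.4 to 91.9 CPM. Slc10a1 was 204 CPM in LD24/0 replicate 5, against 666 to 775 CPM.

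The diet difference in colon minus that in liver passed the edgeR test for Nr0b2 (-5.94), Slc10a2 (-3.80) and Nr1h4 (-1.12), as given above.

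In tissues that entered no comparison, 3 members were above 0 at low levels in each of the 15 libraries read per tissue. For hypothalamus these 15 are a part of its 30 libraries. Fgf15 had a median of 0.267 CPM in hypothalamus (0.109 to 0.520), Slc10a1 0.143 CPM in hypothalamus (0.0642 to 0.242) and Nr1h4 0.495 CPM in inguinal white adipose tissue (0.067 to 1.07).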

How the results depend on the processing

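In liver 2 members passed rather than 1 by DESeq2, by limma-voom, with Dbp and Arntl as covariates, with the replicate block, with values divided by 4, and without the libraries that stood apart. In the main liver fit 29.3% of all genes passed, and 36% without those libraries. In colon 0 passed with Hoxb13 as a covariate (0% of all genes) and 1 with no filter, rather than 3 (3.21% of all genes). Between ileum and jejunum 3 passed by limma-voom, and between colon and cecum 3 with the mitochondrial share as a covariate, rather than 6 each. The main fits of these segments called 25.5% and 59.7% of all genes. For light-dark cycle in ileum 1 passed by DESeq2, and for colon minus liver 5 by DESeq2 and by limma-voom, rather than 3 (9.09% of all genes). Totals over all genes moved too, as given below. Of the ileum pairs, 12 passed over all 15 libraries and 3 over 10. The cause was not tested.

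Signs turned for Nr1h4 in liver (0.05 with the mitochondrial share, 0.14 without the libraries that stood apart), between ileum and jejunum (-0.18 by limma-voom, -0.21 with the mitochondrial share) and between colon and cecum (0.04 by DESeq2, 0.36 with the smooth muscle sum). They turned for Gpbar1 with the smooth muscle sum (0.37 for diet in colon, -2.79 between colon and cecum) and by DESeq2 for colon minus liver (1.9). With Hoxb13, Slc10a2 was 4.18, Slc51a 8.16 with no usable error, and Slc51b 2.37, in a fit that cannot divide Hoxb13 from diet. Correlations that turned were Slc10a2 with Nr0b2 in ileum (-0.13 over 10 libraries), Nr0b2 with Cyp8b1 in antibiotics liver (0.07 within cycles, 0.12 without the 2 farthest) and Nr0b2 with Slc10a1 in chow liver (0.08 without the libraries that stood apart). All other member values kept their sign under the alternatives that kept all replicates.

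Leaving out 1 library at a time gave 1 to 2 members in liver, 1 to 4 in colon, 5 to 6 between ileum and jejunum, 5 to 7 between cecum and ileum, 6 to 7 between colon and cecum, and 0 for light-dark cycle and for diet by cycle. Over all genes such fits called 5233 to 6041 in liver (29.3% in the main fit) and 499 to 1411 in colon (3.21%). Between ileum and jejunum they called 4992 to 7470 (25.5%), between cecum and ileum 8982 to 10319 (42.3%) and between colon and cecum 13099 to 13930 (59.7%). Signs turned in such fits for Gpbar1 in colon (-1.85 to 1.24), Nr1h4 between ileum and jejunum (-0.13 to 0.50) and Nr1h4 between colon and cecum (-0.26 to 0.03). Slc10a1 lost its call in 19 fits between ileum and jejunum and 14 between cecum and ileum. These fits were not run for colon minus liver.

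Over all genes, diet in colon called 761 genes, 1663 by DESeq2, 1411 without the shallow library and 0 with Hoxb13. Colon minus liver called 2334, against 3964 by DESeq2 and 4063 by limma-voom. Without the 5 ileum libraries 3631 genes passed between ileum and jejunum, against 5851. Light-dark cycle in chow liver called 47, against 221 by DESeq2 and 1098 without the libraries that stood apart. In liver limma-voom called 2862 higher and 2428 lower, against 2337 and 3225. Between cecum and ileum DESeq2 called 4007 and 6709, against 4772 and 5039, with a median of all genes of -0.22. Between ileum and jejunum limma-voom called 2968 and 3245, against 3526 and 2325. Between colon and cecum the DESeq2 median was 0.23.

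Same-numbered samples of compared groups correlated over 0.1 in 6 of 30 pairs in liver, 11 of 15 in colon, 9 of 15 for ileum and jejunum, and 4 of 12 each for cecum and ileum and for colon and cecum. Pairing was taken only where every pair was over 0.1, so no block was used in the results above. In colon (median r 0.147, against -0.136 for other numbers) and for ileum and jejunum (0.166, against -0.073) same-numbered libraries were closer than others, and 17 and 13 of 30 libraries correlated best with their own number, a hint from the data and not the design. With the replicate block 5187 genes passed in liver, and Nr0b2 in colon (adjusted p = 0.0597) and Nr1h4 between cecum and ileum (adjusted p = 0.0845) missed the edgeR threshold.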
